A study of Homo sapiens with 12 samples.

Results

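The 8 genes followed here code for transcription factors of the endoderm and its derivatives: the nuclear receptors HNF4A and HNF4G, the forkhead factors FOXA1 and FOXA2, the zinc finger factors GATA4 and GATA6, the homeobox factor CDX2 and the cut-homeobox factor ONECUT2. They were taken by symbol from the gene count tables of 2 pancreatic neuroendocrine tumor cell lines, QGP-1 and BON-1, and all 8 were among the 28008 genes listed. Both lines carried tet-MUC1shRNA, a hairpin against MUC1 that is switched on by doxycycline (DOX). Cells were grown for 7 days with 0.1% DMSO vehicle or with 500 ng/mL DOX, and 3 libraries were made for each of the 4 groups, 12 in all. The question asked of the 8 genes was whether MUC1-C silencing (MUC1-C is the transmembrane subunit of MUC1) changed their expression in either line, and at what level each line expressed them. QGP-1 cells were kept in RPMI medium and BON-1 cells in DMEM/F-12, so line and medium cannot be told apart. The effect of DOX itself and that of the hairpin cannot be told apart either, since no library with DOX and another hairpin was analysed here. RNA came from triplicate cultures, and p-values measure the spread between these cultures of 1 line.

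Endoderm forms the gut tube and the organs that bud from it, including the pancreas, liver, stomach and intestine. FOXA and GATA factors open and hold enhancers early in this tissue. HNF4A maintains hepatocyte, enterocyte and pancreatic programs, while CDX2 sets intestinal identity and ONECUT factors act in liver and pancreas and in some neuroendocrine cells.

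HNF4A has 2 well-described starts, and the counts per gene cannot tell them apart. The 250 bases before each are shown because HNF4A was the member that separated the lines most, and those before CDX2 and ONECUT2 because they were the members whose expression moved most with DOX. All are RefSeq sequence of GRCh38.p14, 5' to 3' on the strand of the gene, and capitals mark matches to the motifs searched.
HNF4A, upstream start (chr20:44355449-44355698, plus strand): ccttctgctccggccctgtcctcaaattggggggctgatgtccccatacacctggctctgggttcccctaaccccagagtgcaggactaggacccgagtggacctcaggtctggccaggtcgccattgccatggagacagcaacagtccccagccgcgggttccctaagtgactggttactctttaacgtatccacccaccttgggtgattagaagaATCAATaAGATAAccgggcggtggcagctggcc
HNF4A, downstream start (chr20:44400989-44401238, plus strand): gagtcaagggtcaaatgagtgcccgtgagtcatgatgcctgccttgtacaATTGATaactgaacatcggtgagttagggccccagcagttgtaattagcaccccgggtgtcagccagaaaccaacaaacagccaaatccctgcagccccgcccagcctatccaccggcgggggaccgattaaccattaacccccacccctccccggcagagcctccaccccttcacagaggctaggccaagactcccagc
CDX2 (chr13:27969316-27969565, minus strand): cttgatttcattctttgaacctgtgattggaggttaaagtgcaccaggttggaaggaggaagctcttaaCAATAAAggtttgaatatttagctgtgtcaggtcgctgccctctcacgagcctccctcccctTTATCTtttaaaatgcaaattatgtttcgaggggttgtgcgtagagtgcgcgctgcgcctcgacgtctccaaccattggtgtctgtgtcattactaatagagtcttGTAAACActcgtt
ONECUT2 (chr18:57435124-57435373, plus strand): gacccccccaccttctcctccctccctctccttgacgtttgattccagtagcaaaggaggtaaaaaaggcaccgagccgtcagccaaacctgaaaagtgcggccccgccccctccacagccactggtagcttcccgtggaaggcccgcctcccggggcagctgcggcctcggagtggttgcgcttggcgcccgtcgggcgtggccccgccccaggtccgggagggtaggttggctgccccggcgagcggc

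Motifs were searched on both strands, and the motifs overlapped in none of these windows. Both HNF4A windows held the ONECUT motif ATTGAT, found in 5.58% of the 35116 promoter windows of the same length. The upstream HNF4A window also held the GATA motif AGATAA (9.17% of all windows). In the CDX2 window, the GATA motif, the FOXA motif TGTTTAC (2.98% of all windows) and the CDX motif CAATAAA (3.66%) each matched 1 time. The ONECUT2 window, with 68.8% GC against a median of 58.0% over all windows, held none of these, and the HNF4 motif CAAAGTCCA (0.325% of all windows) was in none of the 4. These are matches of letters and not binding sites. Promoter windows existed for 5 of the 8 genes; those of FOXA1 and GATA6 overlapped annotated exons and are not shown.

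HNF4A lies on chromosome 20 from 44355699 to 44434596, FOXA2 on chromosome 20 from 22580998 to 22585490, FOXA1 on chromosome 14 from 37589552 to 37595249 and CDX2 on chromosome 13 from 27960918 to 27969315. ONECUT2 lies on chromosome 18 from 57435374 to 57491298, GATA6 on chromosome 18 from 22169589 to 22202528, GATA4 on chromosome 8 from 11676935 to 11760002 and HNF4G on chromosome 8 from 75407649 to 75566834 (RefSeq, GRCh38.p14). Exons of FOXA1 overlap TTC6 and exons of GATA6 overlap GATA6-AS1, each on the opposite strand, and those of HNF4A overlap MIR3646 on the same strand. Whether the authors' counting used strand is not given in the sources used here, so reads of the FOXA1 and GATA6 pairs may not be separated. HNF4G has a listed pseudogene, HNF4GP1.

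Sequencing depth ran from 38224144 to 50525926 counts per QGP-1 library and from 15981954 to 28484324 per BON-1 library. MUC1 served as the check of the labels. In QGP-1 it stood at 7.19, 5.81 and 5.65 CPM (counts over library size, scaled within a line by TMM) with vehicle and at 0.705, 1.04 and 0.744 CPM with DOX, and in BON-1 at 20.6, 20.7 and 15.6 CPM with vehicle and 1.48, 2.65 and 3.97 CPM with DOX. MUC1 was thus lower in all 6 DOX libraries, by 7.51-fold in QGP-1 and 6.90-fold in BON-1 (edgeR quasi-likelihood test, Benjamini-Hochberg adjusted p = 8.2e-07 and 6.5e-11). Of 10 neuroendocrine and epithelial markers, 10 in QGP-1 and 9 in BON-1 averaged at least 1 CPM with vehicle; NCAM1 had 4 counts in all 3 BON-1 vehicle libraries together. Library QGP-1 DOX 1 had the fewest genes with a count, 16602, against 17278 to 19628 in the others. The deposited TPM are dominated by a few small RNAs (RN7SK, RN7SL1 and RN7SL2 made up 50.9% to 80.3% of them), so levels per length are given as TPM rescaled over the remaining genes.

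HNF4A was the member whose level differed most between the lines. BON-1 vehicle libraries held 83.6, 80.8 and 79.9 CPM (scaled over all 12 libraries), whereas the QGP-1 vehicle libraries held 3, 0 and 0 counts. The 3 counts against 5769 gave a BON-1 to QGP-1 ratio of 3480 (exact 95% interval 1190 to 16882). This interval is of counting error only, since counts were pooled over each group, which leaves out the spread between cultures. Reads without molecular identifiers are also not independent molecules. With DOX the QGP-1 libraries held 0, 1 and 0 counts, so HNF4A was too low there to be tested. In BON-1, HNF4A was 85.2, 83.1 and 83.1 CPM with vehicle and 80.7, 90.9 and 71.7 CPM with DOX. These groups overlapped, and the log2 fold change of -0.05 ± 0.09 (SE) did not pass the test (adjusted p = 0.71).

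HNF4G, its close relative, was expressed in both lines. With vehicle it averaged 10.6 ± 1.09 CPM in QGP-1 and 27.8 ± 2.11 CPM in BON-1 (SD, n = 3), a 2.63-fold higher level in BON-1 (adjusted p = 1.5e-10). In QGP-1 the libraries stood at 9.18, 10.5 and 11.3 CPM with vehicle and 10.9, 8.80 and 9.32 CPM with DOX, which overlapped. In BON-1 they stood at 30.7, 26.8 and 28.3 CPM with vehicle and 25.3, 23.2 and 23.8 CPM with DOX. All 3 BON-1 DOX libraries lay below the vehicle libraries, but the log2 fold change of -0.25 ± 0.11 gave an adjusted p of 0.076. With library size in place of TMM it passed (adjusted p = 0.033), and it lay between 0.033 and 0.51 over 15 alternatives.

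**Figure D1:**
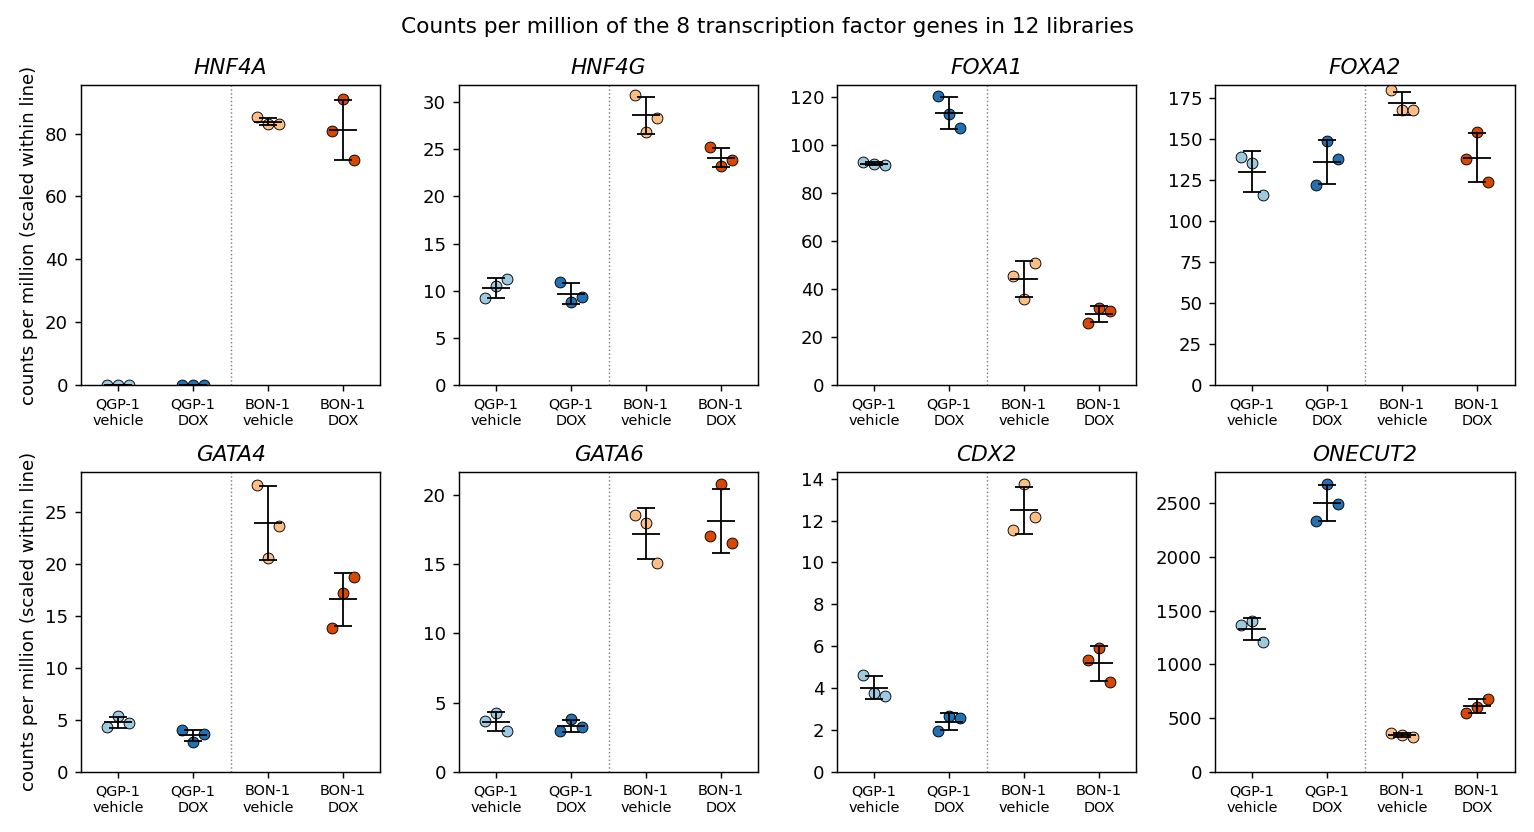
CPM of the 8 genes in each of the 12 libraries (points; y axes linear from 0 and scaled within each line) with the mean and SD (bars) of the 3 libraries of a group, vehicle and DOX, QGP-1 left and BON-1 right of the dotted line. ONECUT2 was higher and CDX2 lower with DOX in both lines without overlap, FOXA1 was higher with DOX in QGP-1 and lower in BON-1, and HNF4A was near 0 in QGP-1.

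FOXA1 responded in opposite directions in the lines. In QGP-1, CPM were 92.9, 92.0 and 91.6 with vehicle and 120, 113 and 107 with DOX, a 1.23-fold higher level (log2 fold change 0.30 ± 0.07, adjusted p = 0.0044). In BON-1, CPM were 45.3, 36.0 and 51.0 with vehicle and 25.9, 31.9 and 30.9 with DOX, a 1.49-fold lower level (log2 fold change -0.57 ± 0.12, adjusted p = 2.9e-04). The groups did not overlap in either line. The difference between the lines was itself tested as the interaction of line and DOX: -0.86 ± 0.15 on the log2 scale (adjusted p = 2.2e-04). In this fit FOXA1 was the only member that passed the test, which 16.7% of all 16598 genes passed (7.92% lower and 8.80% higher in BON-1), and its adjusted p stayed at or below 0.0011 in all 18 alternatives run.

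FOXA2 lay among the more highly expressed members in both lines. In QGP-1 it stood at 139, 135 and 116 CPM with vehicle and 122, 149 and 138 CPM with DOX, overlapping groups with a log2 fold change of 0.06 ± 0.09 (adjusted p = 0.61). On TPM the QGP-1 value passed as higher, at 0.38 when rescaled (adjusted p = 0.021), where the median of all genes was itself shifted by 0.29. In BON-1 it stood at 180, 168 and 168 CPM with vehicle and 138, 154 and 124 CPM with DOX. FOXA2 thus fell in BON-1 without overlap, by 0.31 ± 0.08 on the log2 scale (adjusted p = 0.0039). The interaction, -0.36 ± 0.13, just missed the threshold (adjusted p = 0.051). It passed in 8 of 18 alternatives, with DESeq2 among them (adjusted p = 0.029), and ranged from 0.0053 to 0.15. LINC00261, the noncoding RNA transcribed next to FOXA2, moved the other way in BON-1, from 1138, 1222 and 1248 CPM to 1868, 1729 and 1754 CPM (log2 fold change 0.57 ± 0.08, adjusted p = 3.7e-06). In QGP-1 its log2 fold change was 0.05 ± 0.08 and did not pass (adjusted p = 0.67).

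GATA4 was low in QGP-1 and moderate in BON-1. BON-1 libraries held 27.6, 20.5 and 23.7 CPM with vehicle and 13.8, 17.2 and 18.8 CPM with DOX, so that GATA4 fell by 0.53 ± 0.13 on the log2 scale (adjusted p = 0.0029) with no overlap. QGP-1 libraries held 4.30, 5.34 and 4.66 CPM with vehicle and 3.98, 2.86 and 3.63 CPM with DOX. These also did not overlap, but the log2 fold change of -0.45 ± 0.19 gave an adjusted p of 0.076. It passed without QGP-1 DOX 1 (adjusted p = 0.042) and with all 12 libraries in 1 fit (0.047), and ranged from 0.042 to 0.58 over 14 alternatives. The interaction was -0.07 ± 0.23 (adjusted p = 0.89).

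GATA6, which acts beside GATA4 in pancreas and gut, passed the test in neither line. In QGP-1 it stood at 3.70, 4.26 and 2.91 CPM with vehicle and 2.96, 3.80 and 3.21 CPM with DOX, and in BON-1 at 18.5, 18.0 and 15.1 CPM with vehicle and 17.1, 20.8 and 16.5 CPM with DOX. The groups overlapped in both lines, with log2 fold changes of -0.12 ± 0.20 and 0.07 ± 0.13 (adjusted p = 0.68 and 0.71). With vehicle, GATA4 was 4.76-fold and GATA6 4.52-fold higher in BON-1 than in QGP-1 (adjusted p = 4.5e-12 and 1.4e-11). GATA6-AS1 had no count in any QGP-1 library and 35 counts over the BON-1 vehicle libraries.

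CDX2 was the member that fell most with DOX. In BON-1 it stood at 11.5, 13.7 and 12.2 CPM with vehicle and 5.33, 5.93 and 4.28 CPM with DOX, a 2.41-fold lower level (log2 fold change -1.27 ± 0.18, adjusted p = 2.3e-06). In QGP-1 it stood at 4.64, 3.77 and 3.64 CPM with vehicle and 1.93, 2.69 and 2.58 CPM with DOX, a 1.68-fold lower level (log2 fold change -0.74 ± 0.21, adjusted p = 0.013). Neither line showed overlap. The QGP-1 value rested on 521 counts with vehicle and 310 with DOX, and the call was lost without QGP-1 vehicle 1 (adjusted p = 0.062) and on rescaled TPM (log2 fold change -0.27, adjusted p = 0.15). The interaction of -0.52 ± 0.27 did not pass (adjusted p = 0.21). With vehicle CDX2 was 2.95-fold higher in BON-1 (adjusted p = 4.1e-08).

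ONECUT2 rose in both lines and was, by CPM, the highest member in each. QGP-1 libraries held 1365, 1409 and 1212 CPM with vehicle and 2340, 2678 and 2497 CPM with DOX, a 1.89-fold higher level (log2 fold change 0.92 ± 0.08, adjusted p = 1.2e-06). BON-1 libraries held 365, 341 and 325 CPM with vehicle and 552, 603 and 681 CPM with DOX, a 1.78-fold higher level (0.83 ± 0.08, adjusted p = 8.2e-09). No DOX library reached down to a vehicle library of its line. The interaction was -0.07 ± 0.13 (adjusted p = 0.77), and with vehicle ONECUT2 was 4.08-fold lower in BON-1 than in QGP-1 (adjusted p = 5.8e-16).

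Over the 8 genes, 3 of the 7 tested in QGP-1 passed (1 lower, 2 higher), where 35.0% of all 15089 genes tested did (17.7% lower, 17.3% higher). In BON-1, 5 of 8 passed (4 lower, 1 higher), where 35.3% of all 14625 genes did (18.3% lower, 17.0% higher). The members were chosen with earlier results of these data known, so these counts are descriptions. Genes tested in QGP-1 had a median log2 fold change of -0.09 among the members and -0.01 among all genes; in BON-1 these medians were -0.28 and -0.01. Between the vehicle libraries of the lines, 6 members were higher and 2, FOXA1 and ONECUT2, lower in BON-1, where 74.9% of all genes passed (37.5% higher and 37.5% lower). FOXA1 was 2.21-fold lower in BON-1 (adjusted p = 3.1e-10) and FOXA2 1.25-fold higher (adjusted p = 0.0023).

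**Figure D2:**
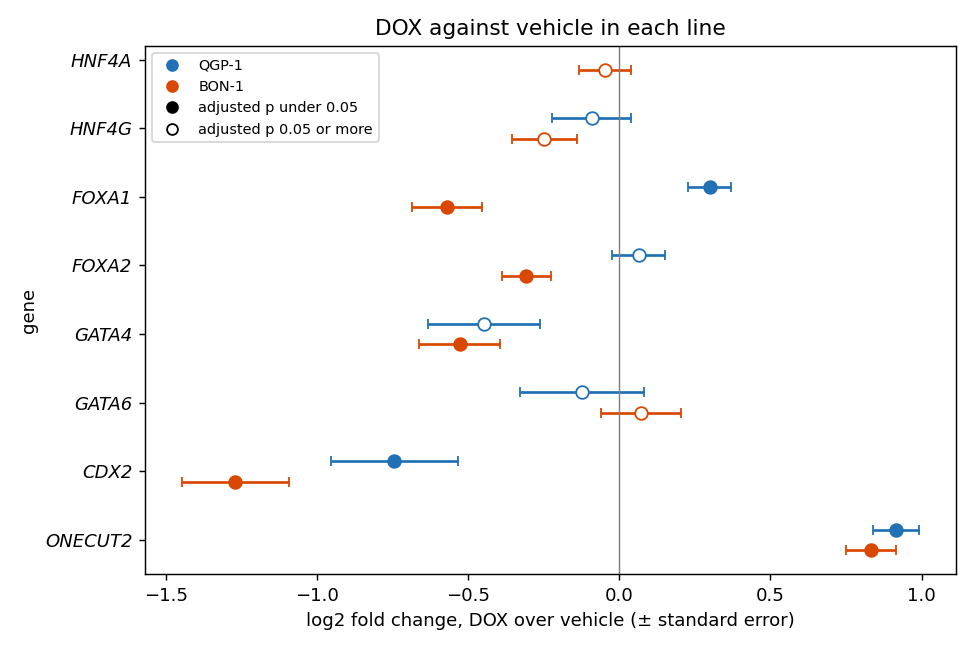
Log2 fold change of DOX over vehicle (x axis) with its standard error (bars) for each gene (y axis) in QGP-1 (blue) and BON-1 (orange), 3 against 3 libraries; filled points have an adjusted p under 0.05. The FOXA1 points lie on opposite sides of 0, at 0.30 and -0.57, and HNF4A has no QGP-1 point since it was not tested there.

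Per length, the order of the members differed between the lines. In QGP-1 with vehicle, ONECUT2 led with 145 ± 16.04 rescaled TPM (SD, n = 3), followed by FOXA2 with 97.1 ± 12.7 and FOXA1 with 51.5 ± 2.31, none overlapping its neighbour. HNF4G followed with 4.16 ± 0.284, and GATA4, CDX2 and GATA6 lay between 1.80 and 2.29 with overlapping neighbours. HNF4A was last, near 0. In BON-1 with vehicle FOXA2 led with 155 ± 5.05 rescaled TPM, ahead of ONECUT2 with 45.5 ± 2.61. HNF4A, with 33.9 ± 0.701, and FOXA1, with 29.8 ± 4.54, overlapped. HNF4G at 14.0 and GATA4 at 13.9 overlapped too, as did GATA6 at 10.4 and CDX2 at 8.16. FOXA2 was thus ahead of ONECUT2 in BON-1 per length but behind it by CPM. With DOX, ONECUT2 reached 342 ± 33.8 rescaled TPM in QGP-1 and 79.2 ± 13.4 in BON-1. Rescaled TPM were shifted upward with DOX in QGP-1, where 6520 genes passed as higher and 668 as lower. The size of the QGP-1 rise is therefore taken from counts, at 1.89-fold, and not from these TPM.

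Genes of other endodermal and hepatic transcription factors were read from a list of 24. This list and the lists below were chosen with earlier results of these data known. Their counts beside the share of all genes are descriptions. With vehicle, ISX, an intestinal homeobox factor, was 26.8 times as high in BON-1 by its ratio of pooled counts (exact 95% interval 23.3 to 31.0). This interval is of counting error only and leaves out the spread between cultures. EHF, an epithelial ETS factor, had 40399 counts in QGP-1 and 168 in BON-1.

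With DOX, 2 of 14 tested genes of this list fell and 4 rose in QGP-1, where 17.7% and 17.3% of all genes did. In BON-1, 1 of 16 fell and 7 rose, where 18.3% and 17.0% of all genes did. The list medians were 0.01 in QGP-1 and 0.23 in BON-1. PROX1, a homeobox factor of liver and pancreas, rose in both lines (log2 fold changes 0.69 and 0.55, adjusted p = 2.5e-05 and 3.1e-06). PPARA, a nuclear receptor of fatty acid oxidation, also passed in both (0.46 and 0.37, adjusted p = 0.0028 and 0.041). In QGP-1 GRHL2 and ELF3, epithelial factors, fell by 0.50 and 0.37 on the log2 scale (adjusted p = 4.5e-04 and 0.0044). In BON-1 EHF rose from 2.17, 1.91 and 3.56 CPM to 6.23, 8.37 and 6.92 CPM (log2 fold change 1.52 ± 0.25, adjusted p = 1.8e-05). HHEX, NR0B2 and KLF5 rose there by 0.74, 0.57 and 0.56 (adjusted p = 1.2e-04, 1.1e-05 and 4.9e-06).

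**Figure D3:**
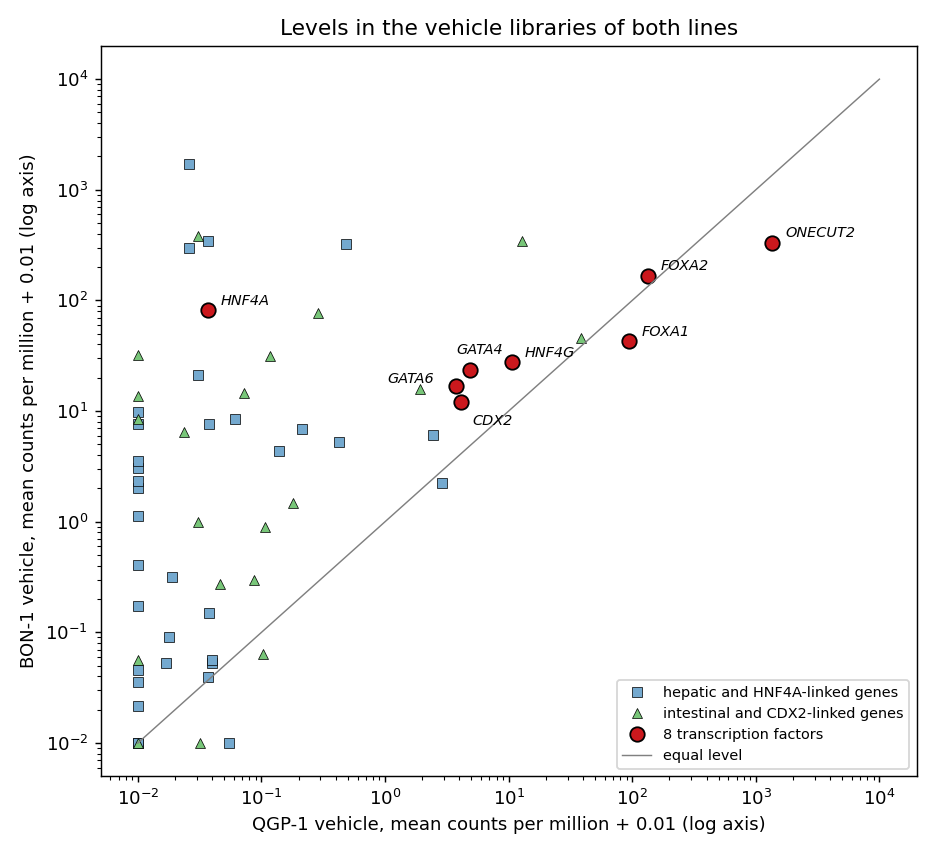
Mean CPM plus 0.01 in the 3 vehicle libraries of QGP-1 (x axis) and BON-1 (y axis), both on log axes, for the 8 transcription factors (red, named), 34 hepatic and HNF4A-linked genes (blue squares) and 20 intestinal and CDX2-linked genes (green triangles), with the line of equal level. HNF4A and most of the listed genes stand far above the line, whereas FOXA1 and ONECUT2 stand below it.

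Of 34 hepatic and HNF4A-linked genes, 19 averaged at least 1 CPM in BON-1 vehicle libraries and 2 did in QGP-1. Some hepatocyte genes were low in BON-1 as well: over its vehicle libraries ALB, albumin, had 30 counts, APOE 3, the fibrinogen genes FGA and FGB 3 and 1, and APOA1 and PCK1 0; these 6 were named after their values were seen. Summed over the 34, the level was 2628 to 2980 CPM in BON-1 and 6.56 to 7.40 CPM in QGP-1. The sum rests on few genes, since the median of the 34 was 2.11 CPM in BON-1 and 0.012 CPM in QGP-1. APOB, the apolipoprotein of very low density lipoprotein, alone averaged 1695 CPM in BON-1. It had 120609 counts in BON-1 and 2 in QGP-1, AMBP 21163 and 2, and A1CF, the APOB mRNA editing cofactor, 24501 and 3. TTR, the thyroxine carrier transthyretin, had 704 counts in BON-1 and none in QGP-1, which makes it at least 425-fold higher (floor of 3 counts over the group).

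With DOX these genes moved in both directions in BON-1 although HNF4A did not pass the test. Of the 34, 19 were tested in BON-1: 6 rose, 4 fell and 9 did not pass, with a median log2 fold change of 0.12, where 17.0% of all genes rose and 18.3% fell. TTR rose from 12.04, 8.51 and 9.61 CPM to 60.7, 55.1 and 60.3 CPM (log2 fold change 2.54 ± 0.12, adjusted p = 1.4e-15), and APOH rose by 0.80 ± 0.16 (adjusted p = 2.3e-04). SERPINA1, which codes for alpha-1-antitrypsin, fell from 377, 299 and 331 CPM to 176, 182 and 170 CPM (log2 fold change -0.93 ± 0.08, adjusted p = 7.1e-10). F2, prothrombin, fell by 0.86 ± 0.28 (adjusted p = 0.019), but 4 of its 6 fits without 1 library lost the call, and its groups overlapped. In QGP-1, 30 of the 34 were too low to test. VTN, vitronectin, passed as higher there (log2 fold change 0.56, adjusted p = 0.037), a call lost in 4 of its 6 fits without 1 library.

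Several intestinal and CDX2-linked genes fell with DOX, 9 of 20 in BON-1 and 3 of 20 in QGP-1, where most were too low to test. Of the 20, 12 averaged at least 1 CPM in BON-1 vehicle libraries and 3 in QGP-1. Summed levels were 919 to 1059 CPM and 50.7 to 58.7 CPM, with medians over the 20 of 7.48 and 0.050 CPM. In BON-1, 9 of the 13 tested fell, 4 did not pass and 0 rose, where 18.3% of all genes fell; their median log2 fold change was -0.91. None rose with DESeq2 either, and all 13 had a log2 fold change below 0, so that 0 rose at an unadjusted p under 0.05. SI, the brush border enzyme sucrase-isomaltase, fell from 8.88, 7.72 and 9.56 CPM to 2.44, 2.60 and 1.93 CPM (log2 fold change -1.91 ± 0.22, adjusted p = 9.5e-08). MEP1A, a brush border metalloprotease, fell from 33.6, 31.7 and 33.5 CPM to 10.97, 10.8 and 11.4 CPM (-1.57 ± 0.12, adjusted p = 2.7e-11). MYO1A, the brush border myosin, and LGALS4, a galectin of gut epithelium, fell by 1.46 and 1.31 on the log2 scale (adjusted p = 1.1e-05 for each). CDH17, the intestinal cadherin, stood at 447, 346 and 398 CPM with vehicle and 352, 344 and 372 CPM with DOX, and did not pass (log2 fold change -0.16 ± 0.08, adjusted p = 0.15).

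In QGP-1 only 3 of the 20 were high enough to test, and all 3 fell, where 17.7% of all genes did. VIL1, villin, fell from 13.9, 11.7 and 11.6 CPM to 7.28, 8.09 and 8.50 CPM (log2 fold change -0.64 ± 0.13, adjusted p = 0.0013). PHGR1 fell by 1.27 ± 0.34 (adjusted p = 0.011), and TFF3 by 0.32 ± 0.11 (adjusted p = 0.037) with overlapping groups. The TFF3 call was lost in 4 of its 6 fits without 1 library and the PHGR1 call in 1. TFF3 is also on a gene list that the study drew from these samples, so its direction is not independent evidence. The list of 20 was chosen with earlier results of these data known, so its counts in either line are not independent either. VIL1 and TFF3 passed in BON-1 too, at -0.26 and -0.47 (adjusted p = 0.017 and 0.0040).

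**Figure D4:**
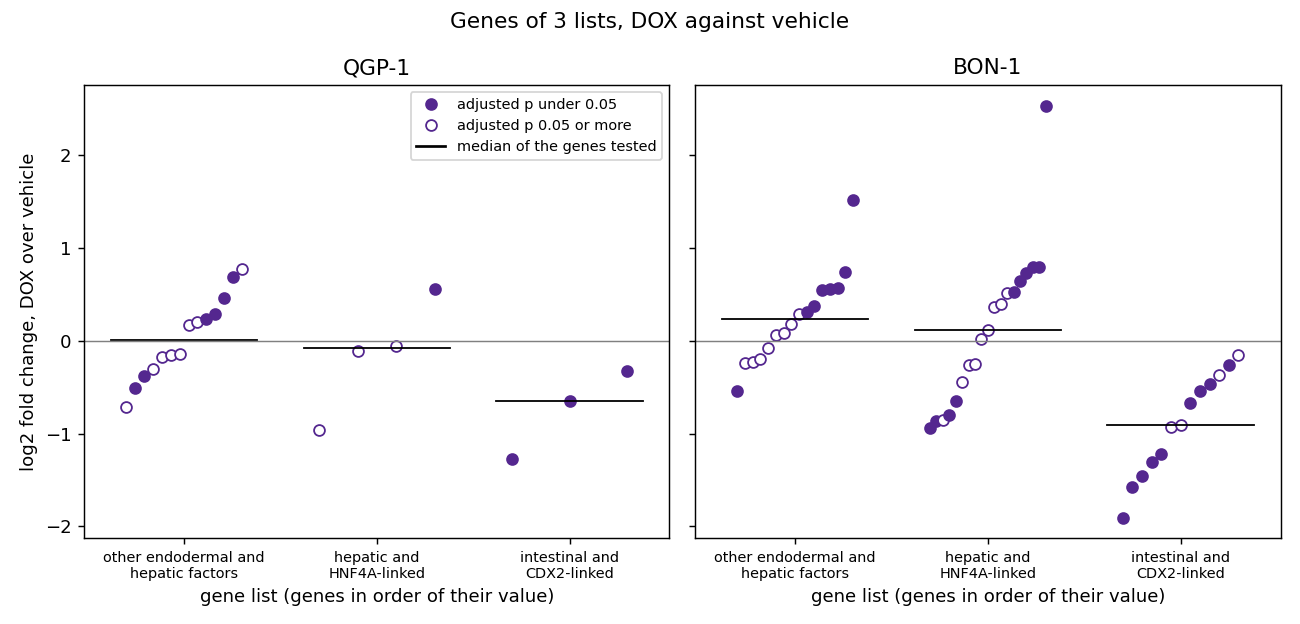
Log2 fold change of DOX over vehicle (y axis) in QGP-1 (left) and BON-1 (right) for every tested gene of 3 lists (x axis, in order of value); filled points have an adjusted p under 0.05 and lines mark list medians. In BON-1 all 13 tested intestinal genes lie below 0, with a median of -0.91, while the hepatic genes lie on both sides.

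Of 10 foregut and gastric genes, 1 of 3 tested fell and 1 rose in QGP-1, and 1 of 6 fell and 2 rose in BON-1, where 17.7% and 17.3% of all genes did in QGP-1 and 18.3% and 17.0% in BON-1. SOX2, a foregut factor, rose in both (0.45 in each, adjusted p = 7.6e-04 and 4.9e-05). TFF1, a gastric trefoil peptide, fell by 1.27 in QGP-1 (adjusted p = 2.3e-06). In BON-1 MUC5AC, a gastric mucin, fell by 1.11 (adjusted p = 0.0035) and CLDN18, a gastric claudin, rose by 0.91 (adjusted p = 2.9e-08).

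Other markers moved in the same libraries. Of the 10 neuroendocrine and epithelial markers, 9 were tested in BON-1: 2 fell, 2 rose and 5 did not pass, CHGB among them. There 18.3% of all genes fell and 17.0% rose. CHGA and SYP, of neuroendocrine granules and vesicles, fell by 1.46 and 0.34 (adjusted p = 2.4e-11 and 0.019). The SYP call held in 3 of its 6 fits without 1 library. The keratins KRT8 and KRT18 rose by 0.62 and 0.58 (adjusted p = 9.3e-06 and 3.3e-06). In QGP-1 all 10 were tested and 8 did not pass. NCAM1 fell by 0.51 (adjusted p = 3.8e-04) and CHGB rose by 0.39 (adjusted p = 7.3e-04), where 17.7% of all genes fell and 17.3% rose. Of 10 markers of other cell types, 1 of 3 tested passed in QGP-1, where 35.0% of all genes did. This was COL1A1, which fell by 1.16 (adjusted p = 0.0073), a call lost without QGP-1 vehicle 2 (adjusted p = 0.054). In BON-1, 2 of 4 passed, where 35.3% of all genes did. These were LUM and CD68, which rose by 1.01 and 1.00 (adjusted p = 6.2e-05 and 4.3e-09). The summed level of the 10 was 3.79 to 5.38 CPM with vehicle and 2.98 to 3.91 CPM with DOX in QGP-1. In BON-1 it was 28.9 to 32.4 CPM against 59.6 to 63.5 CPM, of which CD68 alone averaged 24.5 and 49.5 CPM. PTPRC, the leukocyte marker, had at most 9 counts in a library, and CD3E, a T cell marker, had 0 counts in all QGP-1 libraries and 1 in BON-1. The part of these markers in the results was not tested.

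For each member called in at least 1 line, the genes most alike were sought by Pearson correlation of log2 CPM over the 12 libraries after subtracting the mean of each line, among 9099 genes. These libraries share treatment and scaling, so the values are descriptions. ONECUT2 was followed most closely by PROX1 (r = 0.993), PHACTR2 (0.993) and TEAD1 (0.992), and CDX2 by CTBP1 (0.976), HIST1H3I (0.973) and ITGA3 (0.973). FOXA1 was followed by STS (0.936), NPTXR (0.932) and ZIC2 (0.927), FOXA2 by CAD (0.962), GTF3C1 (0.960) and GNAO1 (0.959), and GATA4 by LYPD6 (0.924), RFX5 (0.913) and RHNO1 (0.912). STS, NPTXR and ZIC2, like FOXA1, had log2 fold changes above 0 in QGP-1 and below 0 in BON-1. They were picked by likeness to FOXA1 in the same libraries, so the shared signs are not independent of it. Of these, only ZIC2 passed in both lines, at 0.37 in QGP-1 and -0.65 in BON-1 (adjusted p = 0.029 and 0.0042).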

How the data were processed

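RNA was isolated from triplicate cultures and libraries were prepared with a stranded mRNA kit. Per the labels and the study's methods, the authors aligned reads to GRCh38 with STAR and used DESeq2; the counting program and its strand setting are not given in the sources used here. The deposited tables hold raw read counts per gene and, beside them, TPM computed by the authors. Counts were tested with edgeR 4.0.16 (quasi-likelihood, TMM, filterByExpr) in each line with its 6 libraries, in all 12 for the interaction and the line comparison, and adjusted by Benjamini-Hochberg over all genes tested; an adjusted p under 0.05 was called, and standard errors are the log2 fold change over the root of its F statistic. The scripts were tested on simulated data. DESeq2 1.42.0 and limma 3.58.1 on log2(TPM + 1) were alternatives, beside other scalings and filters and leaving out each library. Deposited TPM were also rescaled over all genes but RN7SK, RN7SL1 and RN7SL2. Depth was 15981954 to 50525926 counts per library, so a member at under 3 counts in a group is at the floor. Named were the 8 members, MUC1, up to 4 called genes of each list and comparison with the largest change and at least 1 CPM in a group, and the 3 genes most alike to each called member, with at least 3 log2 CPM in both lines. Some genes of the lists are not reported here. The members and lists were chosen with earlier results of these data known. Replicate numbers did not pair the samples.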

Additional observations from a re-analysis of the deposited data

Results flagged for a closer look

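The response to DOX differed between the lines for 12 of the named genes high enough to be tested in each line. The test was the interaction (BON-1 minus QGP-1, log2 scale, edgeR), which 16.7% of all genes passed. Apart from the members, these genes were named for a called change in these same data, so their count cannot be set against that share. Of the transcription factors, FOXA1 differed by -0.86 ± 0.15 (adjusted p = 2.2e-04), ELF3 by 0.67 (0.0043), EHF by 1.39 (1.4e-05), HHEX by 0.46 (0.040) and NR0B2 by 0.72 (0.010). Of the listed target genes and neighbouring RNAs, VIL1 differed by 0.40 (0.044), TFF1 by 1.40 (1.2e-08) and LINC00261 by 0.53 (0.0019). Among markers, CHGA differed by -1.60 (4.8e-08), SYP by -0.51 (0.015), KRT8 by 0.87 (2.5e-04) and KRT18 by 0.68 (3.0e-04). The HHEX call was lost in 11 and the VIL1 call in 8 of their 12 fits without 1 library. SI, MYO1A and MUC5AC also passed as lower, but they had 0 to 15 counts over a QGP-1 group and were not tested in that line alone, so no size is given.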

How the results depend on the processing

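Vehicle levels kept their direction and their call for all 8 members in every alternative that could be fitted, as did FOXA1 and ONECUT2 in QGP-1 and CDX2 in BON-1 with the fold threshold apart. Requiring an absolute log2 fold change above 1 left 0 members lower and 0 higher among 543 genes in QGP-1, and 1 lower (CDX2) and 0 higher among 719 genes in BON-1. On deposited TPM, whose median over all genes was shifted by 0.59 in QGP-1 and -0.31 in BON-1, 9257 genes passed in QGP-1 (91 lower, 9166 higher, against 2676 and 2610 on counts) with 0 members lower and 4 higher, and 258 in BON-1 (229 lower, 29 higher, against 2677 and 2488) with 1 member lower and 0 higher; CDX2 and the GATA genes of QGP-1 were too low to be tested there. On rescaled TPM, shifted by 0.29 in QGP-1, 0 members were lower there and 668 genes were lower and 6520 higher, and in BON-1 2395 were lower and 1410 higher. On deposited TPM the QGP-1 log2 fold change turned positive for HNF4G (0.33), GRHL2 (0.18), ELF3 (0.32), VIL1 (0.063), TFF3 (0.39) and NCAM1 (0.17), and that of GATA6 in BON-1 turned negative (-0.23). On rescaled TPM HNF4G (0.19) and GATA6 (0.13) turned positive in QGP-1. Relative to the shifted medians the QGP-1 values on both TPM scales were below 0. With all 12 libraries in 1 fit, 2 members were lower in QGP-1, GATA4 beside CDX2. For the interaction, 2 members (FOXA1 and FOXA2) were lower with DESeq2, with library size, with DESeq2 size factors, without the filter and with at least 10 counts in every library. By CPM, 6 of 8 members of BON-1 kept their rank by rescaled TPM.

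Without 1 library at a time, 0 to 2 members were lower in QGP-1 (0 without vehicle 1, 2 without DOX 1), and 1 to 2 were lower for the interaction (2 without QGP-1 vehicle 1, QGP-1 DOX 1 or BON-1 DOX 2). Values near 0 crossed it: HNF4A in BON-1 from -0.15 to 0.018, FOXA2 in QGP-1 from -0.013 to 0.15, GATA6 in QGP-1 from -0.26 to 0.0096 and in BON-1 from -0.048 to 0.13, and the GATA4 interaction from -0.19 to 0.031. The cause of these changes was not tested. Samples with the same replicate number did not deviate together (r from -0.083 to 0.149 in QGP-1 and -0.069 to 0.100 in BON-1), and not every library correlated best with its own number. With the replicate block 1 member was lower and 2 higher in QGP-1 among 5487 genes, and 4 lower and 1 higher in BON-1 among 5064; no member's call changed, and the HHEX and VIL1 interactions were lost.

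GATA4, GATA6 and CDX2 in QGP-1 rested on 310 to 627 counts per group and CDX2 in BON-1 with DOX on 281, and HNF4A was not tested in QGP-1.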
